A study of Rattus norvegicus with 12 samples.

Results

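The gene group examined here was the WNT signalling system at and below the cell surface, namely the WNT ligands, the Frizzled receptors and their coreceptors, the secreted inhibitors and a small set of feedback genes and nuclear effectors. Members were the genes of the count table whose symbol was Wnt, Fzd, Dkk or Sfrp followed by a number, together with Axin2, Lrp5, Lrp6, Lef1, Tcf7, Ctnnb1, Wif1, Nkd1, Rnf43 and Znrf3. The rule used names and no measured value, and it found 45 of the 17268 genes of the table. It was set with earlier results of these data known. Shares set beside those of all genes are therefore descriptions and not support for the choice of this group. By role these were 19 ligands, 11 Frizzled receptors and LRP coreceptors, 8 secreted inhibitors, 4 feedback genes and cell surface ligases, and 3 nuclear effectors. The samples were cerebral cortex of adult male Sprague Dawley rats, in 4 groups of 3 libraries. Sham rats had surgery without a clot. Model rats received a blood clot in the middle cerebral artery, which is an embolic stroke. The rt-PA group received the same clot and then, 6 h later, recombinant tissue plasminogen activator, the enzyme used to dissolve clots. The rt-PA+Acu group received clot and rt-PA alike and, 2 h after the clot, acupuncture at the Shuigou (GV26) and Neiguan (PC6) points. No group received acupuncture without rt-PA, so an effect of acupuncture alone cannot be told apart from its combination with rt-PA.

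WNT proteins are secreted lipid-modified signals that bind Frizzled receptors. With an LRP5 or LRP6 coreceptor, a bound Frizzled stops the destruction of beta-catenin, which then enters the nucleus and turns on target genes with the TCF and LEF factors. Secreted DKK, SFRP and WIF proteins can damp the signal outside the cell, and AXIN2, NKD1, RNF43 and ZNRF3 damp it from within or at the membrane. In the brain the WNT7A and WNT7B ligands are best known for maintaining the blood-brain barrier, through Frizzled receptors on endothelial cells.

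Libraries held 11678450 to 13616935 counts, and 3 counts in a library stood for 0.208 to 0.262 CPM. The unit CPM is the count scaled to a common library total after trimmed mean (TMM) normalization, without division by gene length, so levels are compared between libraries and never between genes. Of the 45 members, 39 had enough counts to be tested, and these were the same 39 in all 4 comparisons. The other 6 were Wnt3a, Wnt6, Wnt8a, Wnt8b, Wnt11 and Sfrp5. Wnt3a and Wnt8a had 0 counts in every library. Wnt8b had at most 2 counts in a library, Sfrp5 at most 7, Wnt11 at most 10 and Wnt6 at most 25. Those 6 were too low to be tested at this depth, and they are not shown to be absent.

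Markers of several cell types differed between the groups, and their part in the results on the members was not tested. Sums over a list can rest on 1 marker, so counts are given beside them. Cortical excitatory neuron markers, all 8 of 8 above 0 in every group, summed to 2017 to 2294 CPM in Sham, 1755 to 1915 in Model, 995 to 1298 in rt-PA and 1421 to 2708 in rt-PA+Acu, but 6 of the 8 fell in Model and 1, Nrn1 at 831 to 850 CPM, rose and carried the sum. With acupuncture 6 of these 8 rose and 1 fell, and none passed in rt-PA against Model. Astrocyte markers, 8 of 8 in the table and none at 0 in a group, summed to 5065 to 6019, 4352 to 6292, 4862 to 5729 and 6145 to 7612 CPM in the same order, with 6 falling and 1 rising in Model and 7 rising with acupuncture. Thalamic neuron markers, 6 of 6 in the table, summed to 46.8 to 55.1, 171 to 232, 93 to 192 and 42.1 to 83.9 CPM, with Gbx2 at 0 in the rt-PA+Acu group, and of 4 tested 2 rose and 1 fell in Model, Prkcd making up most of the sum there. The sums for infiltrating monocytes and macrophages, 7 of 7 markers, were 58.8 to 74.8, 162 to 238, 236 to 448 and 33.9 to 51.2 CPM, with Ms4a7 at 0 in Sham, and all 6 tested fell with acupuncture. Neutrophil markers, 7 of 7, summed to 7.27 to 11.9, 4.96 to 17.1, 15.1 to 82.1 and 3.74 to 5.47 CPM, with Mmp8 at 0 in the rt-PA+Acu group, and 4 of 5 tested fell with acupuncture. Oligodendrocyte markers, 8 of 8, summed to 12360 to 18440, 1794 to 8937, 2833 to 12080 and 3396 to 21810 CPM, so that the rt-PA+Acu libraries reached from below to above the Sham range, and 5 of 8 fell in Model. Striatal neuron markers, 7 of 7, summed to 394 to 1136, 233 to 324, 185 to 278 and 250 to 348 CPM. Of these, 6 fell in Model, 1 rose with acupuncture and 2 passed as lower in rt-PA+Acu against Sham. Of 7 microglia markers 6 fell and 1 rose in Model, and 3 rose and 1 fell with acupuncture. Of 3 tested choroid plexus markers 2 rose in Model, and 1 of 3 fell with acupuncture. Of pericyte and smooth muscle markers 4 of 9 fell in Model, and with acupuncture 4 of 8 fell and 1 rose. In bulk tissue, fewer cells of a type and less RNA per cell cannot be told apart.

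In Model against Sham, 7 of 14 tested ligands rose, while 6 of 11 receptors and coreceptors and 3 of 4 feedback genes and ligases fell. Counting an adjusted p under 0.05 with more than a 2-fold change as a call, 17 of the 39 tested members were called, which is 43.6% against 21.3% of all genes tested. Of the 39, 9 were called higher, where 9.39% of all genes were, and 8 lower, where 11.9% were. Without the fold requirement 21 members passed, which is 53.8%, and the share over all genes was also 53.8%, 27.3% higher and 26.5% lower. Passing the test was thus as frequent among the members as among all genes, while changes over 2-fold were more frequent. The other ligands that passed were 2 that fell, no receptor, coreceptor, feedback gene or ligase rose, of 7 secreted inhibitors 2 rose and 1 fell, and none of the 3 nuclear effectors passed. The median log2 fold change was -0.23 over the tested members and 0.01 over all genes. The 3 Model libraries lay wholly above or below the 3 Sham libraries for 25 of the 39 tested members, and for 63.7% of all genes.

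None of the 39 tested members was called in rt-PA against Model by edgeR, where 0% of all genes were called. Of the 39, 1 member had an unadjusted p under 0.05, where 9.83% of all genes did, and DESeq2 called that same member, Wnt1. The share of all genes that DESeq2 called is not given here, and the study reported changed genes in this comparison with that tool. The groups did not overlap for 4 of the 39 members, Wnt1 being lower and Wnt4, Fzd10 and Ctnnb1 higher, and for 16% of all genes. When acupuncture was added to rt-PA, 13 members were called, which is 33.3% against 15.2% of all genes. Of the 39, 5 were called higher, where 7.13% of all genes were, and 8 lower, where 8.12% were. Without the fold requirement 17 of the 39 passed, 8 higher and 9 lower, which is 43.6% against 34.7% of all genes. Over all genes 17% passed as higher and 17.7% as lower. The groups did not overlap for 20 of the 39 members, and for 51.2% of all genes. Here 2 ligands rose and 5 fell, 2 receptors rose and 1 fell, 1 secreted inhibitor rose and 3 fell, and 3 feedback genes rose and none fell. Between rt-PA+Acu and Sham 1 member was called by edgeR, Fzd8, which is 2.56% against 2.03% of all genes, and Fzd4 also passed without the fold requirement, where 5.1% of all genes did. That count was 0 without Sham replicate 2 or 3 and 2, with Fzd9 added, without rt-PA+Acu replicate 1 or by DESeq2. Leaving out 1 library moved the acupuncture count most, from 13 calls to 5 without rt-PA+Acu replicate 1 or replicate 2, to 7 without rt-PA replicate 1 and to 8 without rt-PA replicate 3.

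**Figure D1:**
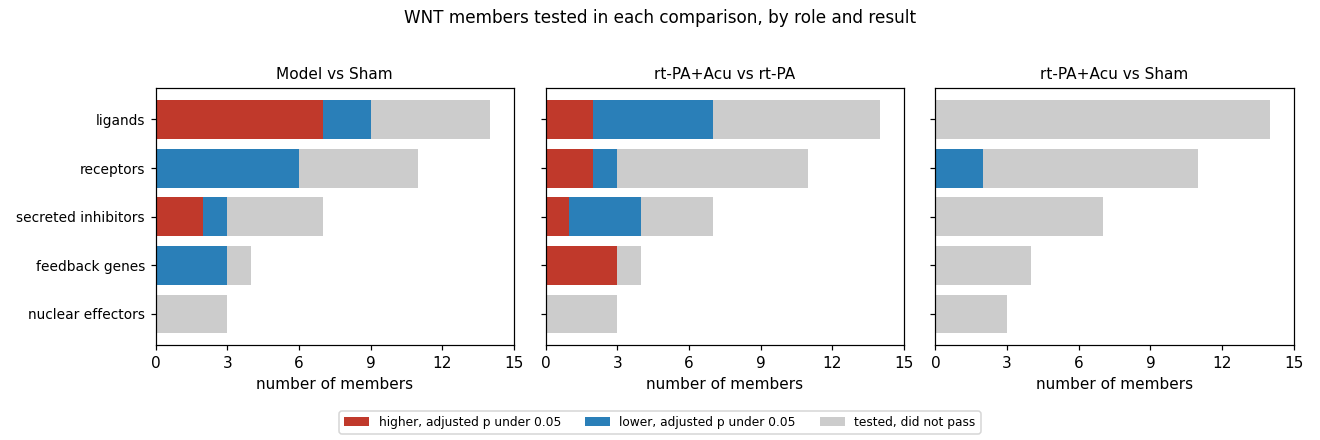
Stacked bars give, on the x axis, the number of tested members of each role (y axis) that were higher, were lower or did not pass an adjusted p of 0.05 in 3 of the comparisons. In Model against Sham the ligand bar holds 7 higher and 2 lower genes and the receptor bar 6 lower genes, and in rt-PA+Acu against Sham only 2 receptors passed.

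Wnt1 had the largest log2 fold change of the tested members in Model against Sham. It encodes the founding WNT ligand, which in development patterns the midbrain. Its level was 0.889, 0.613 and 0.612 CPM in the Sham libraries, 26.2, 22.0 and 22.4 in Model, 5.83, 1.22 and 9.21 in rt-PA, and 0.842, 0.610 and 1.12 in rt-PA+Acu. Every Model library stood above every library of the other groups, each rt-PA library lay between Model and the highest rt-PA+Acu library, and the Sham and rt-PA+Acu libraries overlapped. The rise in Model against Sham was 5.05 ± 0.23 (SE) on the log2 scale, with an adjusted p of 3.27e-06. In rt-PA against Model the log2 difference was -2.12 ± 0.56, with an adjusted p of 0.348 by edgeR and 0.00512 by DESeq2. Wnt1 fell by 2.64 ± 0.71 on the log2 scale in rt-PA+Acu against rt-PA, with an adjusted p of 0.0254. That call depended on single libraries, with an adjusted p of 0.0664 without rt-PA replicate 1, 0.0831 without rt-PA replicate 3, 0.0746 without rt-PA+Acu replicate 1 and 0.0908 without rt-PA+Acu replicate 2.

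The barrier ligands Wnt7a and Wnt7b moved apart after stroke. Wnt7a stood at 35.8, 43.7 and 27 CPM in Sham, 9.01, 13 and 10.7 in Model, 10.5, 14.2 and 10.4 in rt-PA, and 20.6, 19.96 and 22.8 in rt-PA+Acu. Wnt7b stood at 45.4, 43.2 and 40.8 CPM in Sham, 115, 81.1 and 78.0 in Model, 85.9, 57.2 and 87.5 in rt-PA, and 39.7, 47.6 and 64.8 in rt-PA+Acu. For both genes the Model libraries did not overlap Sham, Wnt7a being lower and Wnt7b higher. Wnt7a fell by 1.69 ± 0.21 on the log2 scale in Model (adjusted p = 0.000283) and rose by 0.85 ± 0.17 with acupuncture (adjusted p = 0.00965), reaching a level between Model and Sham. Against Sham its remaining difference in rt-PA+Acu was -0.75 ± 0.18 with an adjusted p of 0.0526. Wnt7b rose by 1.10 ± 0.16 in Model (adjusted p = 0.000637), passed the 2-fold line in that comparison with all libraries but not without Model replicate 1, and its difference with acupuncture was -0.60 ± 0.23 (adjusted p = 0.0769). The ratio of Wnt7b counts to Wnt7a counts within a library, whose size depends on transcript length but whose change between groups does not, was 0.988 to 1.51 in Sham, 6.23 to 12.8 in Model, 4.03 to 8.43 in rt-PA and 1.92 to 2.85 in rt-PA+Acu. No Sham library reached the lowest rt-PA+Acu ratio, and no rt-PA+Acu library reached the lowest rt-PA ratio.

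Wnt2, Wnt10a, Wnt9b and Wnt3 rose in Model and fell again with acupuncture. Wnt2, a ligand of the beta-catenin branch, read 8.98, 7.96 and 9.96 CPM in Sham, 31.4, 29.9 and 21.6 in Model, 23.3, 18.7 and 20.8 in rt-PA, and 10.6, 6.19 and 5.92 in rt-PA+Acu. Wnt10a, a ligand known from teeth and skin appendages, read 3.72, 8.73 and 7.86 CPM in Sham, 19.4, 15.1 and 23.8 in Model, 27.7, 15.8 and 25.5 in rt-PA, and 6.32, 9.42 and 7.79 in rt-PA+Acu. For both ligands every library of the Model and rt-PA groups stood above every library of the Sham and rt-PA+Acu groups. Wnt2 rose by 1.64 ± 0.19 on the log2 scale in Model (adjusted p = 0.000185) and fell by 1.47 ± 0.25 with acupuncture (adjusted p = 0.00547). Wnt10a rose by 1.53 ± 0.32 (adjusted p = 0.00407) and fell by 1.55 ± 0.26 (adjusted p = 0.00511).

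Wnt9b, a ligand known from kidney development, read 0.566, 2.68 and 0.524 CPM in Sham, 6.49, 4.82 and 8.68 in Model, 6.17, 9.25 and 7.66 in rt-PA, and 0.505, 1.39 and 2.85 in rt-PA+Acu. Wnt3, a ligand required for the primitive streak, read 0.162, 0.842 and 1.49 CPM in Sham, 1.60, 4.40 and 3.47 in Model, 1.87, 2.37 and 1.77 in rt-PA, and 0.505, 0.523 and 0.824 in rt-PA+Acu. Again the Model and rt-PA libraries lay above all Sham and rt-PA+Acu libraries, for Wnt3 by a narrow margin. Wnt9b rose by 2.38 ± 0.59 on the log2 scale in Model (adjusted p = 0.00963) and fell by 2.26 ± 0.52 with acupuncture (adjusted p = 0.0142, and 0.0579 without rt-PA+Acu replicate 2). Wnt3 rose by 1.93 ± 0.65 (adjusted p = 0.0343) and fell by 1.67 ± 0.40 (adjusted p = 0.016). The rise of Wnt3, which rests on 2, 11 and 17 counts in Sham, was not held when a library was left out, with an adjusted p of 0.0728 without Sham replicate 1, 0.0986 without Sham replicate 2, 0.116 without Model replicate 2 and 0.0562 without Model replicate 3. Its fall had an adjusted p of 0.0603 without rt-PA+Acu replicate 1 and 0.0643 without rt-PA+Acu replicate 2. Wnt9b and Wnt3 are neighbours on rat chromosome 10 and Wnt10b and Wnt1 on chromosome 7 in the RefSeq gene order, and Wnt3a and Wnt9a, and Wnt6 and Wnt10a, form the other neighbouring pairs.

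Wnt2b and Wnt9a behaved otherwise. Wnt2b, a close relative of Wnt2, read 0.889, 0.0766 and 0.786 CPM in Sham, 2.52, 2.71 and 2.31 in Model, 2.64, 1.36 and 3.02 in rt-PA, and 0.842, 1.92 and 3.97 in rt-PA+Acu. It rose by 2.12 ± 0.59 on the log2 scale in Model (adjusted p = 0.0157), a rise that rests on 11, 1 and 9 counts in Sham. Sham replicate 2 lay below the level of 3 counts, so the size of the rise is uncertain. The difference of Wnt2b with acupuncture was -0.05 ± 0.57 (adjusted p = 0.954), the rt-PA+Acu libraries spanning the range from Sham to above Model. Wnt9a, a ligand known from joint development, read 25.2, 20.5 and 23.1 CPM in Sham, 2.37, 6.17 and 9.67 in Model, 5.27, 9.69 and 5.38 in rt-PA, and 16.4, 15.7 and 10.1 in rt-PA+Acu. All Sham libraries were above all others, and all rt-PA+Acu libraries were above the Model and rt-PA libraries. Wnt9a fell by 1.91 ± 0.42 in Model (adjusted p = 0.00654) and rose by 1.05 ± 0.30 with acupuncture (adjusted p = 0.0321). The rise had an adjusted p of 0.0984 to 0.104 when rt-PA replicate 1 or 3 or rt-PA+Acu replicate 1 or 2 was left out, and 0.0509 when all 12 libraries were fitted together.

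The remaining tested ligands, Wnt4, Wnt5a, Wnt5b, Wnt10b and Wnt16, passed in no comparison by edgeR with all libraries. Wnt5a, the main ligand of the branch that does not use beta-catenin, ranged from 3.32 to 16.3 CPM, the highest value standing in rt-PA+Acu replicate 3. Wnt10b had a log2 difference of 1.12 ± 0.44 in Model against Sham, with an adjusted p of 0.0564, and Wnt5b one of -1.08 ± 0.57, with an adjusted p of 0.141. Both were called in that comparison with the replicate number as a block and without Model replicate 3, and Wnt10b also with library size alone, with 10 counts in every library and without Sham replicate 2.

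**Figure D2:**
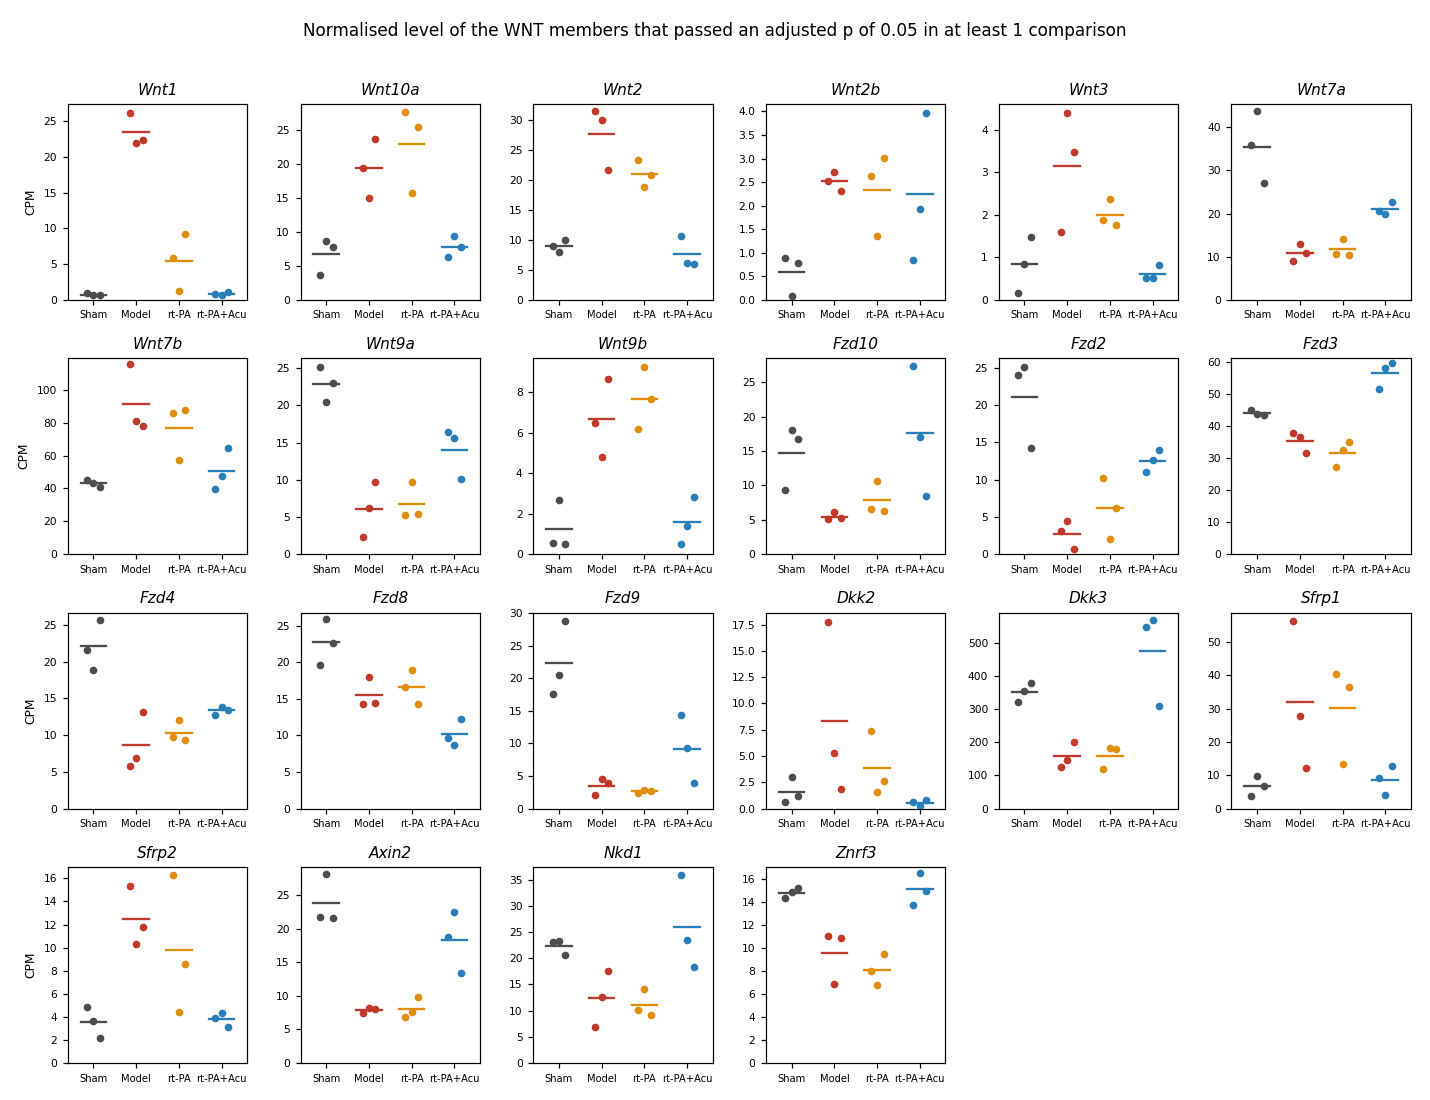
Each panel is 1 member that passed an adjusted p of 0.05 in at least 1 comparison, with CPM on the y axis (from 0), the 4 groups on the x axis, points for libraries and horizontal lines for group means. Wnt1 stands at 22.0 to 26.2 CPM in Model and at no more than 1.12 CPM in Sham and rt-PA+Acu.

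Of the 11 receptors and coreceptors 6 fell in Model, all of them Frizzled genes, and 4 of these were called lower. Fzd2, a receptor linked with both WNT branches, read 24.0, 25.04 and 14.2 CPM in Sham, 3.05, 4.48 and 0.661 in Model, 10.3, 2.01 and 6.19 in rt-PA, and 11.03, 12.6 and 13.9 in rt-PA+Acu. Fzd9, a receptor deleted in Williams syndrome, read 17.6, 20.5 and 28.7 CPM in Sham, 2.06, 4.48 and 3.88 in Model, 2.36, 2.87 and 2.73 in rt-PA, and 14.4, 9.24 and 3.97 in rt-PA+Acu. Both genes were lower in every Model and rt-PA library than in every Sham library. Fzd2 fell by 2.93 ± 0.54 on the log2 scale in Model (adjusted p = 0.0034), and its difference with acupuncture was 1.02 ± 0.48 (adjusted p = 0.137) although the groups did not overlap. Fzd9 fell by 2.68 ± 0.31 (adjusted p = 0.000214) and rose by 1.79 ± 0.45 with acupuncture (adjusted p = 0.0194). The 3.97 CPM of rt-PA+Acu replicate 3 left it closest to the rt-PA libraries, and the rise had an adjusted p of 0.067 without rt-PA replicate 1, 0.0596 without rt-PA replicate 3, 0.0608 without rt-PA+Acu replicate 1 and 0.0588 without rt-PA+Acu replicate 2. In rt-PA+Acu against Sham the Fzd9 libraries were wholly lower, with a log2 difference of -1.28 ± 0.41 and an adjusted p of 0.115 by edgeR, 0.0172 by DESeq2 and 0.0361 without rt-PA+Acu replicate 1.

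Fzd4, the endothelial receptor for Norrin and WNT signals in the vessels of the retina and brain, read 21.6, 18.9 and 25.7 CPM in Sham, 5.73, 6.94 and 13.1 in Model, 9.71, 12.1 and 9.28 in rt-PA, and 12.7, 13.9 and 13.5 in rt-PA+Acu. Fzd10 read 9.30, 18.1 and 16.8 CPM in Sham, 5.04, 6.09 and 5.21 in Model, 6.59, 10.6 and 6.34 in rt-PA, and 27.4, 17.1 and 8.39 in rt-PA+Acu. Fzd4 was lower in all 9 libraries of clot-bearing rats than in Sham, while Fzd10 in rt-PA+Acu overlapped both Sham and rt-PA. Fzd4 fell by 1.35 ± 0.30 on the log2 scale in Model (adjusted p = 0.00592) and was lower in rt-PA+Acu than in Sham by a log2 difference of -0.72 ± 0.15 (adjusted p = 0.0372). The second of these calls had an adjusted p of 0.0614 to 0.127 without Sham replicate 1, 2 or 3 or rt-PA+Acu replicate 1 or 2, 0.0882 with the replicate number as a block and 0.12 when all 12 libraries were fitted together. Endothelial markers, 8 of 10 in the table and none at 0 in a group, summed to 361 to 435 CPM in Sham, 253 to 450 in Model, 311 to 457 in rt-PA and 178 to 223 in rt-PA+Acu. In Model 1 of them, Kdr, rose from 12.8 to 20.5 CPM to 94.7 to 136 CPM and 2 fell, and with acupuncture 1 rose and 6 fell. In rt-PA+Acu against Sham 6 of the 8 passed as lower and none as higher, where 5.1% of all genes passed. Of 8 tested pericyte and smooth muscle markers 5 passed as lower and none as higher in that comparison. The part of these markers in the Fzd4 and Fzd8 values was not tested. Fzd10 fell by 1.42 ± 0.27 in Model (adjusted p = 0.00228), and its difference with acupuncture was 1.16 ± 0.42 (adjusted p = 0.0655), which was called by DESeq2 (adjusted p = 0.0182), in a fit over 12 libraries (0.0294) and without rt-PA+Acu replicate 3 (0.0097).

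Fzd8, a receptor expressed widely in the developing brain, was lower in Model than in Sham and lower again in rt-PA+Acu. It read 19.6, 26.0 and 22.6 CPM in Sham, 14.3, 17.9 and 14.5 in Model, 16.6, 19.0 and 14.4 in rt-PA, and 9.68, 8.72 and 12.2 in rt-PA+Acu. Libraries of the acupuncture group were below those of all other groups. Fzd8 fell by 0.54 ± 0.16 on the log2 scale in Model against Sham (adjusted p = 0.0203), by 0.71 ± 0.19 in rt-PA+Acu against rt-PA (adjusted p = 0.0264) and by 1.15 ± 0.18 in rt-PA+Acu against Sham (adjusted p = 0.0139) by edgeR, which called no other member in that comparison. The last value had an adjusted p of 0.0808 without Sham replicate 2 and 0.0557 without Sham replicate 3. The fall in Model had an adjusted p of 0.0821 without Sham replicate 2, 0.0528 without Sham replicate 3 and 0.0546 without Model replicate 1. The fall with acupuncture had an adjusted p of 0.068 to 0.0953 without rt-PA replicate 1 or 2 or rt-PA+Acu replicate 1 or 2, and 0.0674 with the replicate number as a block.

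Fzd3, a receptor that guides growing axons, changed by less than 2-fold. It fell by 0.31 ± 0.11 on the log2 scale in Model (adjusted p = 0.0369) and rose by 0.84 ± 0.14 with acupuncture (adjusted p = 0.00468), from 27.2 to 35.2 CPM in rt-PA to 51.8 to 59.7 CPM in rt-PA+Acu, above the 43.4 to 45.0 CPM of Sham. The fall in Model had an adjusted p of 0.0698 to 0.0905 without Sham replicate 1, 2 or 3 or Model replicate 2 or 3, and 0.0756 with scaling by library size alone. Fzd5, Fzd6, Fzd7 and the coreceptors Lrp5 and Lrp6 passed in no comparison. Lrp6 ranged only from 35.5 to 44.7 CPM over the 12 libraries. Lrp5 had a log2 difference of -0.57 ± 0.24 in Model against Sham, with an adjusted p of 0.0724, and Lrp6 one of -0.23 ± 0.09, with an adjusted p of 0.066.

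Of the 7 tested secreted inhibitors Sfrp1 and Sfrp2 rose in Model and Dkk3 fell. Sfrp1, which binds WNT proteins outside the cell, read 3.88, 9.65 and 6.64 CPM in Sham, 56.2, 27.8 and 12.1 in Model, 40.2, 13.3 and 36.5 in rt-PA, and 9.18, 3.92 and 12.7 in rt-PA+Acu. Sfrp2, its close relative, read 4.85, 3.6 and 2.18 CPM in Sham, 15.3, 10.3 and 11.8 in Model, 16.3, 4.45 and 8.55 in rt-PA, and 3.87, 4.36 and 3.14 in rt-PA+Acu. Model libraries of both genes lay above Sham, and rt-PA+Acu libraries below rt-PA, with a wide spread within Model and rt-PA. Sfrp1 rose by 2.26 ± 0.60 on the log2 scale in Model (adjusted p = 0.0183, and 0.0662 without Sham replicate 3) and fell by 1.80 ± 0.51 with acupuncture (adjusted p = 0.0294). That fall had an adjusted p of 0.0934 without rt-PA replicate 1, 0.0872 without rt-PA replicate 3, 0.0762 without rt-PA+Acu replicate 1 and 0.0796 without rt-PA+Acu replicate 2. Sfrp2 rose by 1.82 ± 0.30 in Model (adjusted p = 0.00122). Its fall with acupuncture, 1.37 ± 0.45 with an adjusted p of 0.0499992, sat at the threshold, and the adjusted p was 0.09 to 0.164 without rt-PA replicate 1 or 3 or any 1 of the rt-PA+Acu replicates, 0.0893 with the replicate number as a block and 0.0507 with DESeq2's size factors.

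Dkk3, a divergent member of the Dickkopf family, moved oppositely to Sfrp1 and Sfrp2 in both comparisons. It was listed with the inhibitors by its family, and its effect on WNT signalling was not measured. It read 321, 355 and 379 CPM in Sham, 126, 146 and 201 in Model, 118, 182 and 179 in rt-PA, and 548, 569 and 309 in rt-PA+Acu. Every Model and rt-PA library was below every Sham and rt-PA+Acu library, and replicate 3 of rt-PA+Acu was below Sham while the other two were above it. Dkk3 fell by 1.15 ± 0.16 on the log2 scale in Model (adjusted p = 0.000695) and rose by 1.57 ± 0.27 with acupuncture (adjusted p = 0.00543). Dkk2, an LRP-binding modulator, read 0.647, 2.99 and 1.22 CPM in Sham, 17.8, 5.33 and 1.9 in Model, 7.42, 1.58 and 2.58 in rt-PA, and 0.589, 0.262 and 0.824 in rt-PA+Acu. Model replicate 1 was far above the other Model libraries, and Model and Sham overlapped. The log2 difference of Dkk2 was 2.37 ± 0.89 in Model against Sham (adjusted p = 0.0575), which was called by DESeq2 (adjusted p = 0.00344), with library size alone (0.0481), in a fit over 12 libraries (0.0317) and without Model replicate 3 (0.0136). Dkk2 fell by 2.75 ± 0.71 with acupuncture (adjusted p = 0.0212, and 0.0642 without rt-PA replicate 1, 0.0631 without rt-PA+Acu replicate 1 and 0.0763 without rt-PA+Acu replicate 2). Dkk4, Sfrp4 and Wif1 passed in no comparison. Meningeal and fibroblast markers, 10 of 10 in the table and none at 0 in a group, summed to 309 to 778 CPM in Sham, 81.8 to 267 in Model, 210 to 761 in rt-PA and 291 to 685 in rt-PA+Acu. Of 9 tested 3 fell and none rose in Model, and of 10 tested with acupuncture 1 rose and 2 fell. Ptgds, at 96.9 to 414 CPM, and Pdgfra, at 151 to 193 CPM, carried most of the Sham sum. The part of these markers in the inhibitor values was not tested.

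The feedback genes are themselves switched on by beta-catenin and limit the signal. Axin2, a scaffold of the beta-catenin destruction complex and a widely used readout of the pathway, read 21.8, 28.2 and 21.6 CPM in Sham, 7.40, 8.12 and 8.10 in Model, 6.80, 7.60 and 9.80 in rt-PA, and 18.8, 22.6 and 13.5 in rt-PA+Acu. Nkd1, an inhibitor that binds Dishevelled, read 23.0, 23.4 and 20.5 CPM in Sham, 6.87, 12.5 and 17.6 in Model, 10.1, 14.1 and 9.14 in rt-PA, and 36.0, 23.4 and 18.3 in rt-PA+Acu. Znrf3, a membrane ligase that removes Frizzled from the surface, read 14.3, 14.9 and 15.2 CPM in Sham, 11.1, 6.85 and 10.8 in Model, 7.97, 6.74 and 9.51 in rt-PA, and 13.7, 16.6 and 15.0 in rt-PA+Acu. For all 3 genes the Model and rt-PA libraries lay below all Sham and all rt-PA+Acu libraries. Axin2 fell by 1.59 ± 0.16 on the log2 scale in Model (adjusted p = 0.000114), which is 3.01-fold lower, and rose by 1.18 ± 0.24 with acupuncture (adjusted p = 0.00968). Nkd1 fell by 0.85 ± 0.29 (adjusted p = 0.0394) and rose by 1.22 ± 0.28 (adjusted p = 0.015). Znrf3 fell by 0.61 ± 0.21 (adjusted p = 0.033) and rose by 0.90 ± 0.19 (adjusted p = 0.0105). Rnf43, a ligase of the same kind as Znrf3, read 4.58 to 21.1 CPM over the 12 libraries and passed in no comparison with all libraries, although it was called lower in Model without Model replicate 3.

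The smaller falls in Model leaned on single libraries. For Nkd1 the adjusted p was 0.0748 to 0.106 without Sham replicate 1, 2 or 3 or Model replicate 2, and for Znrf3 it was 0.0668 to 0.0845 without the same libraries. With scaling by library size alone it was 0.062 for Nkd1 and 0.0515 for Znrf3. The rise of Nkd1 with acupuncture had an adjusted p of 0.0553 without rt-PA replicate 1 and 0.0551 without rt-PA replicate 3, and its log2 difference without rt-PA+Acu replicate 1 was 0.91, under the 2-fold line. Axin2 kept its call in both comparisons under every alternative run, although its log2 difference with acupuncture was 1.00 without rt-PA+Acu replicate 2.

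The promoters of Axin2 and Nkd1 are shown because these were the only members whose window held CTTTGAT. These letters stand here for the core bound by TCF and LEF factors, and other forms of the core were not searched. Windows were the 250 bases before the annotated start, from RefSeq on GRCr8, available for 31 of the 45 members. The letters CTTTGAT were searched on both strands and overlap neither of the other motifs searched. The Axin2 window is chr10:94398535-94398784 on the plus strand and the Nkd1 window chr19:34722847-34723096 on the minus strand, both written 5′ to 3′ with CTTTGAT in capitals.
Axin2: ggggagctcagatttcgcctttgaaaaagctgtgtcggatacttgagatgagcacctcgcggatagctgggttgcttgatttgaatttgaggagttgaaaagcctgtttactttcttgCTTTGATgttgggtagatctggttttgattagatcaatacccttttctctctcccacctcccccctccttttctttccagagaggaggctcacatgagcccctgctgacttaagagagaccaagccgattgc
Nkd1: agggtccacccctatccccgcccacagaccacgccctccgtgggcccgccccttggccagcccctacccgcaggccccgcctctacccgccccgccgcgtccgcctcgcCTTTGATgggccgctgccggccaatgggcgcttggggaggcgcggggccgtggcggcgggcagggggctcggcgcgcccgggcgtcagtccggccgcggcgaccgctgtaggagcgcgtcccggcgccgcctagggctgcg
The letters CTTTGAT were found in 2 of 31 members (6.45%) and in 3.15% of the 33469 promoters searched. The AP-1 letters TGACTCA were found in 2 members, Lef1 and Wnt16, against 4.05% of all promoters, and the letters TATAAA in 0 of 31 against 12.9%. A match in these windows is a description of letters and not a bound site.

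The nuclear effectors changed little at the RNA level. Ctnnb1, which encodes beta-catenin, read 444, 479 and 399 CPM in Sham, 362, 380 and 379 in Model, 411, 382 and 391.7 in rt-PA, and 365, 403 and 378 in rt-PA+Acu. Its Model libraries lay below Sham, with a log2 difference of -0.23 ± 0.09 and an adjusted p of 0.053. Lef1 ranged from 6.82 to 12.3 CPM and Tcf7 from 3.31 to 6.52 CPM over the 12 libraries, and the groups overlapped for both in every comparison.

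**Figure D3:**
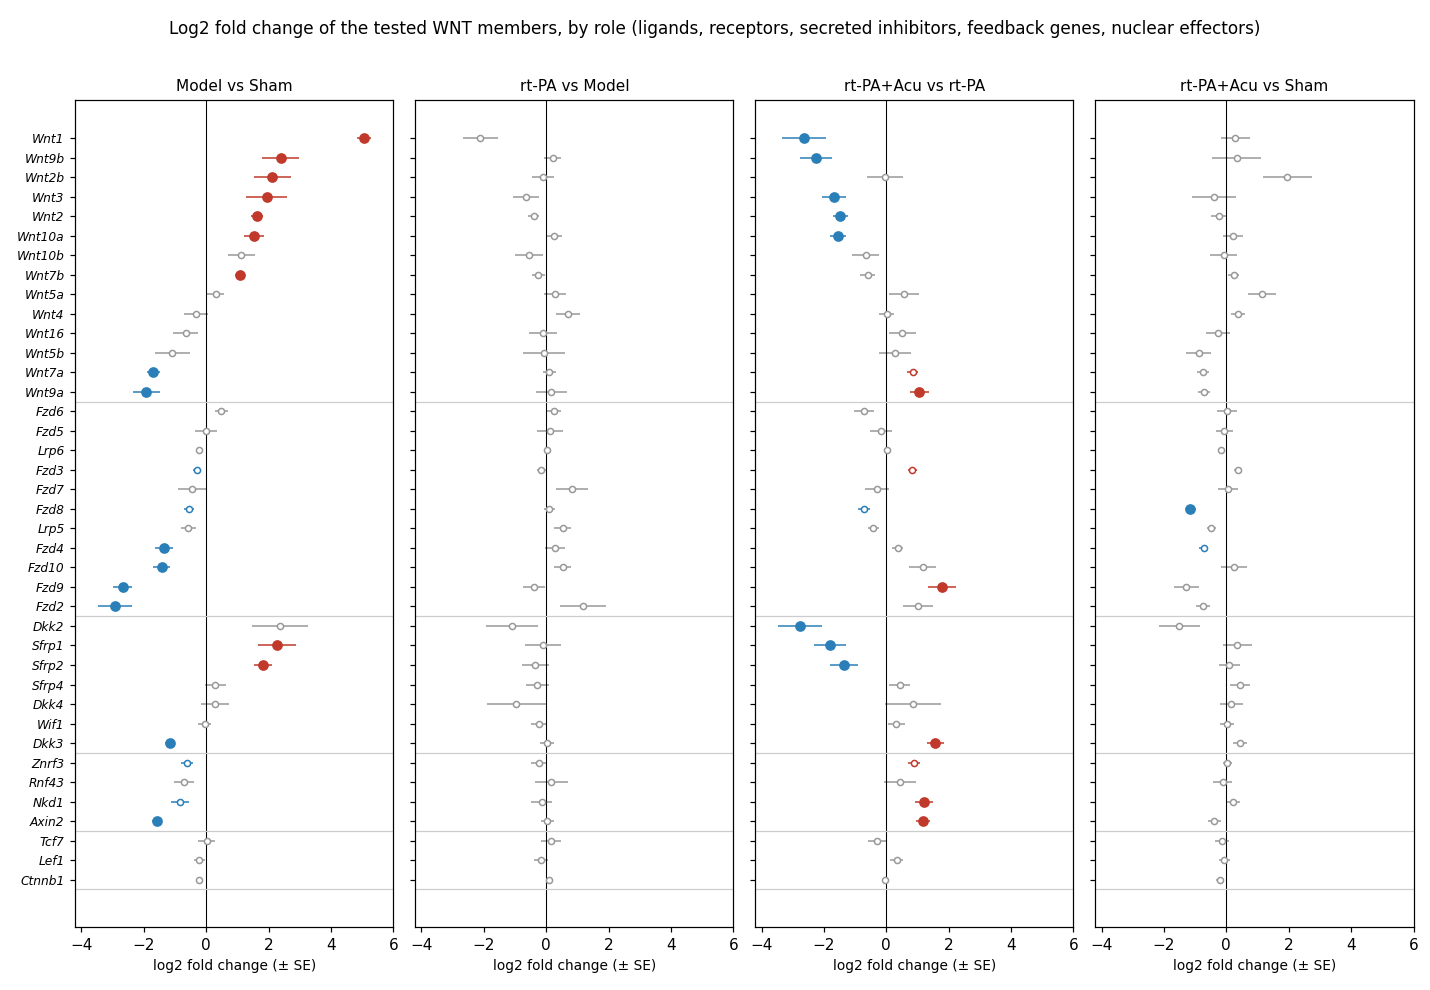
Each row is a tested member, grouped by role, and the x axis is its log2 fold change with bars of 1 SE in each of the 4 comparisons. Red (rise) and blue (fall) symbols passed an adjusted p of 0.05, filled symbols also passed 2-fold, and grey symbols did not pass, as for every member in rt-PA against Model.

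The members moved in opposite directions in the stroke comparison and in the acupuncture comparison, as genes in general did. Model against Sham and rt-PA+Acu against rt-PA share no library. Of the 39 tested members, 31 (79.5%) had opposite signs, and over all genes tested in both comparisons 10411 of 12753 (81.6%) did. Across the members Pearson's r was -0.865 and Spearman's rho -0.822, and across all genes -0.834 and -0.811. These are descriptions over genes, which are not independent replicates, and the members' values were close to those of the whole table. The median absolute log2 fold change was larger for the members, 1.08 against 0.48 in Model against Sham and 0.71 against 0.39 with acupuncture. Both comparisons called 11 members, all with opposite signs, which is 64.7% of the 17 and 84.6% of the 13, against 52.5% and 72.8% for all genes. They were Wnt1, Wnt2, Wnt3, Wnt9a, Wnt9b, Wnt10a, Fzd9, Dkk3, Sfrp1, Sfrp2 and Axin2. Fzd8 passed as lower in both comparisons, and Wnt2b, which rose in Model, had a difference near 0 with acupuncture.

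**Figure D4:**
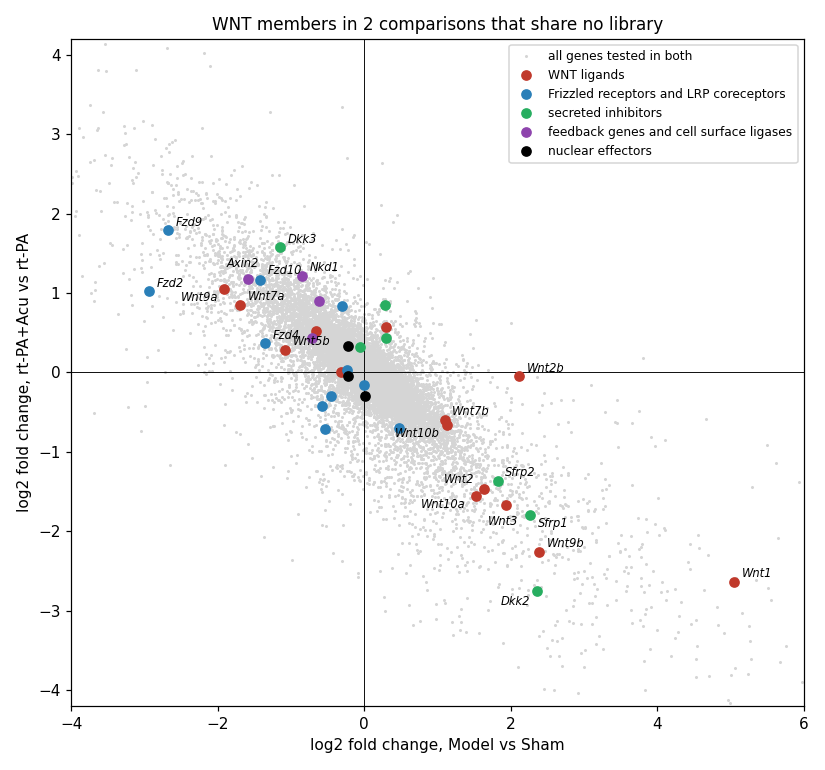
The log2 fold change in Model against Sham (x axis) is plotted against that in rt-PA+Acu against rt-PA (y axis), coloured points being members by role and grey points all genes tested in both, of which 107 lie beyond the axes. Wnt1, Wnt9b and Dkk2 sit at lower right, Fzd9 at upper left, and Wnt2b, at 2.12 and -0.05, lies on the horizontal axis.

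Other genes of the pathway were read from 7 lists covering ligand secretion, further receptors, further inhibitors, the cytoplasmic relay, nuclear partners, the planar polarity and calcium branch, and responsive genes. Of 99 listed genes 94 were in the table and 89 were tested in Model against Sham, where 21 were called (23.6% against 21.3% of all genes). Of the 89, 6 were called higher and 15 lower, where 9.39% and 11.9% of all genes were. Without the fold requirement 54 of the 89 passed (60.7% against 53.8%), 20 higher and 34 lower, where 27.3% and 26.5% of all genes were. Falls and rises numbered 11 and 3 of 19 tested genes in the planar polarity and calcium list. They numbered 6 and 2 of 11 in the secretion list and 4 and 2 of 7 nuclear partners. Further inhibitors had 5 and 4 of 14, the cytoplasmic relay 4 and 5 of 19, and further receptors 3 and 1 of 10. Responsive genes had 3 and 3 of 11. In rt-PA against Model edgeR and DESeq2 called 0 of 88, and 10 had an unadjusted p under 0.05, where 9.83% of all genes did. With acupuncture 17 of 89 were called (19.1% against 15.2% of all genes), 10 of the 89 higher and 7 lower, where 7.13% and 8.12% of all genes were. Without the fold requirement 32 of the 89 passed, which is 36% and close to the 34.7% of all genes. Against Sham 3 of 88 were called (3.41% against 2.03%), a count that became 1 without Sham replicate 2 or 3, without rt-PA+Acu replicate 2 or with the replicate number as a block.

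Of 11 tested genes of the responsive list, 3 were called higher in Model and 3 lower, Bmp4 and Sox17 being among the falls. The oncogene Myc and the hyaluronan receptor Cd44, from that list, went up in Model while the member Axin2 went down. Myc read 4.37, 1.76 and 2.36 CPM in Sham, 47.9, 34.4 and 37.2 in Model, 53.1, 41.2 and 46.9 in rt-PA, and 5.14, 5.23 and 10.3 in rt-PA+Acu. Cd44 read 6.31, 8.65 and 6.99 CPM in Sham, 327, 217 and 192 in Model, 327, 241 and 258 in rt-PA, and 22.2, 25.6 and 88.7 in rt-PA+Acu. Both were higher in every Model and rt-PA library than in any Sham or rt-PA+Acu library. Myc rose by 3.82 ± 0.31 on the log2 scale (adjusted p = 5.29e-05) and fell by 2.76 ± 0.29 with acupuncture (adjusted p = 0.00128). Cd44 rose by 5.08 ± 0.25 (adjusted p = 1.08e-05), fell by 2.59 ± 0.52 with acupuncture (adjusted p = 0.00913), and in rt-PA+Acu was still above Sham by 2.64 ± 0.55 (adjusted p = 0.0389). The factor Sp5 had an adjusted p of 0.00294 in Model against Sham, where it read 0.992 to 1.32 CPM in Model and no more than 0.162 CPM in Sham, below the level of 3 counts, so no fold is given.

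Notum, a secreted enzyme that strips the lipid from WNT proteins, changed in the same directions as Axin2. It read 6.23, 3.22 and 3.06 CPM in Sham, 0.229, 0.338 and 0.496 in Model, 0.208, 0.502 and 0 in rt-PA, and 5.14, 3.66 and 1.498 in rt-PA+Acu. It passed as lower in Model (adjusted p = 0.000502) and as higher with acupuncture (adjusted p = 0.012), and no fold is given because the Model and rt-PA libraries lay near the level of 3 counts. The formin-related gene Daam2 fell by 2.698 ± 0.16 on the log2 scale in Model (adjusted p = 1.11e-05) and rose by 2.09 ± 0.34 with acupuncture (adjusted p = 0.0048), and the neuronal kinase gene Camk2a fell by 2.30 ± 0.11 (adjusted p = 3.75e-06) and rose by 1.75 ± 0.31 (adjusted p = 0.00642). Bmp4 fell by 2.16 ± 0.33 in Model (adjusted p = 0.000798). The endothelial factor Sox17 fell by 1.58 ± 0.48 in Model (adjusted p = 0.0237) and was lower in rt-PA+Acu than in Sham by a log2 difference of -1.86 ± 0.24 (adjusted p = 0.0066), as was the DKK receptor gene Kremen1, by -1.51 ± 0.35 (adjusted p = 0.0496). With acupuncture Tmem88 fell by 2.17 ± 0.44 (adjusted p = 0.0092), Nfatc4 by 2.06 ± 0.67 (adjusted p = 0.0463) and Dact1 by 1.74 ± 0.55 (adjusted p = 0.0423), the groups overlapping for Nfatc4 and Dact1.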

How the data were processed

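RNA was sequenced from 12 cerebral cortex libraries, grouped by their labels, 3 per group. According to the labels, poly(A) RNA with an integrity number over the stated minimum was used, with a strand-marking kit and molecular identifiers in the adapters. The authors deposited whole-number raw counts per gene symbol, without normalization or pooling, made from paired-end reads aligned to mRatBN7.2. The study's methods name STAR and Salmon 1.9.0 with Ensembl annotation, and the submitters' processing notes list STAR 2.7.10a, Salmon 1.9.0 and featureCounts 2.0.1. The strand setting, the annotation release and the use of the identifiers in counting are not given in the sources used here, so depth limits describe counting error alone, and overlapping genes on opposite strands may share counts. Counts can also be split between near-identical genes.

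The deposited counts entered edgeR 4.0.16 (R 4.3.3). A comparison used the 6 libraries of its groups and all genes kept by filterByExpr, with TMM scaling and the robust quasi-likelihood test, two-sided, with Benjamini-Hochberg adjustment over all genes tested. TMM factors lay between 0.949 and 1.078. The study used DESeq2, tried here as an alternative (version 1.42.0). A call needed a change of more than 2-fold (1 on the log2 scale) together with an adjusted p under 0.05. Every SE is the log2 fold change divided by the square root of the F statistic. The code was tested on simulated data. Alternatives were another tool, 2 other scalings, 2 other filters on low counts, a fit over 12 libraries, the replicate number as a block, no fold threshold and leaving out each library. Promoters came from RefSeq on GRCr8 and were used for their letters only. Figures used matplotlib 3.10.9 under Python 3.11.15.

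Members called in a comparison were described with the value in every library, those passing with a smaller change by fold change and adjusted p, and others by range. Up to 8 called genes with the largest change were named from the other pathway lists. The members and lists were chosen with earlier results of these data known. The labels call the 3 libraries of a group separate samples and do not tie them to animals. The p-values therefore weigh a group difference against the spread between these samples. Whether that spread covers variation between animals is not known. The sampling time of the sequenced tissue is not given in the sources used here.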

Additional observations from a re-analysis of the deposited data

How the results depend on the processing

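For the 44 pairs of member and comparison that passed, or that DESeq2 called, and their 562 alternatives, 482 kept direction and side of the threshold, 70 lost and 10 gained the adjusted p, and 0 reversed. Of 40 results that passed, 22 passed under every alternative in which the gene was tested. Among these 22 were Fzd2, Wnt1, Wnt2b and Wnt9b in Model against Sham, which 1 of the filters on low counts left untested. Members called in Model against Sham numbered 17, and 16 to 21 with 1 library left out, the highest without Model replicate 3. Requiring 10 counts in every library gave 13, of which 12 were kept and Wnt10b was gained, since Fzd2, Wnt1, Wnt2b, Wnt3 and Wnt9b had fewer than 10 counts in a library and were no longer tested. In rt-PA against Model the count was 0, and 1 by DESeq2. With acupuncture it was 13, and 5 to 14 with 1 library left out, with fewer libraries in the fit. Against Sham it was 1, 2 by DESeq2 or without the fold threshold, and 0 to 2 with 1 library left out. Among the other pathway genes, dropping the fold threshold gave 54 in place of 21 calls in Model against Sham (60.7% against 53.8% of all genes). With acupuncture it gave 32 in place of 17 (36% against 34.7%), and against Sham 9 in place of 3 (10.2% against 5.1%). Against Sham those calls were also 7 by DESeq2, 1 with the replicate block and 1 to 4 with 1 library left out. Members outside those 44 pairs that at least 1 alternative called were Wnt10b, Wnt5b and Rnf43 in Model against Sham, and Fzd2, Fzd6 and Wnt11 with acupuncture. The cause of the changes by tool and block was not tested.

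Groups share replicate numbers. Correlations of same-numbered deviations ran from -0.121 to 0.146, and in Model against Sham all 3 were positive, at 0.051 to 0.111. The labels do not say whether equal numbers mark a shared batch or a pairing, and these small correlations cannot decide it. Libraries correlated best with their own number in 6 of 6 cases in Model against Sham, 2 of 6 in rt-PA against Model, 2 of 6 with acupuncture and 0 of 6 against Sham. The 6 cases read the same correlations from the side of either group, so they are not independent and give no more than a weak hint. With the replicate block, members called numbered 19, 0, 12 and 1 in that order. Levels under 0.208 to 0.262 CPM, the worth of 3 counts, could not be compared, and 3 libraries per group limit what differences could be found.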
